A study of Arabidopsis thaliana with 6 samples.

Results

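Expression of 10 genes of the iron deficiency response was described in *bpcV* and wild type inflorescence apices. They are the IRON MAN peptide genes AT1G47400, AT1G47395 and AT2G30766, the transcription factor genes *bHLH38*, *bHLH39*, *bHLH100* and *bHLH101*, and *POPEYE* (*PYE*), *BRUTUS* (*BTS*) and *OPT3*. The genes were picked by locus from 32678 genes in the deposited tables, with their level in the same *bpcV* and wild type libraries already known, so their difference between genotypes is given as a description and no test is read from it. *bpcV* plants carried *bpc1-2*, *bpc2*, *bpc3*, *bpc4* and *bpc6* in the Columbia-0 (Col-0) background, and they were set against Col-0 wild type plants. BPC (BASIC PENTACYSTEINE) proteins are transcription factors that bind GA-rich DNA. Apices with flowers up to stage 12 were sampled from untreated plants, grown in long days of 16 h light and 8 h dark, as 3 *bpcV* and 3 wild type biological replicates, and no iron treatment was applied. RNA was sequenced in bulk, where fewer cells of a type and less RNA per cell cannot be told apart.

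Plants short of iron switch on a bHLH transcription factor cascade. Factors of subgroup IVc, helped by URI (bHLH121), activate the subgroup Ib genes *bHLH38*, *bHLH39*, *bHLH100* and *bHLH101*, whose proteins act with FIT to switch on iron reduction and import in the root. BTS, an E3 ubiquitin ligase with iron-binding hemerythrin domains, marks IVc factors for degradation, and IRON MAN peptides bind BTS and so shield those factors. PYE is a bHLH factor that restrains iron distribution genes, and OPT3 loads iron into the phloem, from which the shoot iron status is signalled to the root.

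The coding sequences of the IRON MAN genes are shown because their similarity decides how far reads could be told apart between them. Coordinates are from RefSeq assembly TAIR10.1. AT1G47395 and AT1G47400 lie in tandem on the plus strand of chromosome 1, at 17382998 to 17383830 and at 17385707 to 17386485, with 1876 bases between them. AT2G30766 lies on the plus strand of chromosome 2, at 13107583 to 13110480. The coding sequences span chr1:17385818-17385970 for AT1G47400, chr1:17383117-17383269 for AT1G47395 and chr2:13108068-13108211 for AT2G30766. Capitals mark the 17 positions at which AT1G47400 and AT1G47395 differ, and in AT2G30766 the longest run shared with AT1G47400.
AT1G47400: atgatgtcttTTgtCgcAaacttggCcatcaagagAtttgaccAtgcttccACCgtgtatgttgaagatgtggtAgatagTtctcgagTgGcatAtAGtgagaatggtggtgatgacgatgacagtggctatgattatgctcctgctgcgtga
AT1G47395: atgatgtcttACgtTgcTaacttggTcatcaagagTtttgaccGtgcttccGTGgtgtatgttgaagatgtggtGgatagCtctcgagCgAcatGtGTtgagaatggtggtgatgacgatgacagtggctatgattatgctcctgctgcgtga
AT2G30766: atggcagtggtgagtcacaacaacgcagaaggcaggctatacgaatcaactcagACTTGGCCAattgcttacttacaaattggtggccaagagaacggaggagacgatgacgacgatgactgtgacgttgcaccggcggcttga
AT1G47400 and AT1G47395 shared 136 of 153 coding bases (88.9%), with a longest identical run of 55 bases. AT2G30766, with 144 coding bases, was 53.5% identical to AT1G47400 and 51.6% identical to AT1G47395, and the longest run it shared with either was 9 bases. All 60 counts of the 10 genes in the 6 libraries were whole numbers within 0.001, so no fractional assignment of reads between genes was seen in them.

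The 250 bases before the annotated gene start are shown for both tandem IRON MAN genes, which were compared for shared sequence, and for *BTS* and *OPT3*, which held G-boxes. They are chr1:17385457-17385706 for AT1G47400, chr1:17382748-17382997 for AT1G47395 and chr3:6273716-6273965 for *BTS*, all on the plus strand, and chr4:9250344-9250593 on the minus strand for *OPT3*. Capitals mark a G-box (CACGTG, a bHLH and bZIP recognition sequence) or a GA repeat (GAGAGA, or TCTCTC where it lies on the other strand).
AT1G47400 upstream: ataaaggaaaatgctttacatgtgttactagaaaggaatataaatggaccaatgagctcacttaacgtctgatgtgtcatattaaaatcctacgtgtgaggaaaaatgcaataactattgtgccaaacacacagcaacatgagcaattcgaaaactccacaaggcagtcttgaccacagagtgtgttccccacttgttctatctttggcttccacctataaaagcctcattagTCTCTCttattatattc
AT1G47395 upstream: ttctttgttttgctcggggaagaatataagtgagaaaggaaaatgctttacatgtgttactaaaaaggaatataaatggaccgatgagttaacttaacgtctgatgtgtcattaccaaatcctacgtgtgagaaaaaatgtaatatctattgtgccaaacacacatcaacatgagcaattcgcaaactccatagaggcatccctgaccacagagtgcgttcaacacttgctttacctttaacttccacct
BTS upstream: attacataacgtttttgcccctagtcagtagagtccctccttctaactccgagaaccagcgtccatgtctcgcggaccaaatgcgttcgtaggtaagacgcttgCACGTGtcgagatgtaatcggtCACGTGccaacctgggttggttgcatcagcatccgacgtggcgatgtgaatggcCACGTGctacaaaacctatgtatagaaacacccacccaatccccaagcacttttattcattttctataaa
OPT3 upstream: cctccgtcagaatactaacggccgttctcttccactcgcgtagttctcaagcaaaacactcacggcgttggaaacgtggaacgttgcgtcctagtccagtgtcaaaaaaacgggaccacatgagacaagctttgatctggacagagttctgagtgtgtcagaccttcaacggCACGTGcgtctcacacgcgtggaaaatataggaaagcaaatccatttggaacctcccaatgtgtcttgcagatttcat
The regions before AT1G47400 and AT1G47395 were identical at 190 of 216 aligned bases (88%), with a longest shared run of 28 bases. Both strands were searched in all 10 genes and in 27443 upstream regions of the same length. A G-box was present before 4 of the 10 genes, *bHLH38*, *bHLH100*, *BTS* and *OPT3*, and in 6.49% of all regions. *BTS* held 3 of them, starting at -146, -124 and -70 from the gene start, and *OPT3* held 1, starting at -78. A GA repeat was present before 1 of the 10 genes, AT1G47400, at -17 to -12, and in 20.6% of all regions. The E-box CANNTG, which includes the G-box, was present before 8 of 10 genes, those other than *bHLH101* and *PYE*, and in 55.3% of all regions. A match is a description of the letters and not of a bound site.

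**Figure D1:**
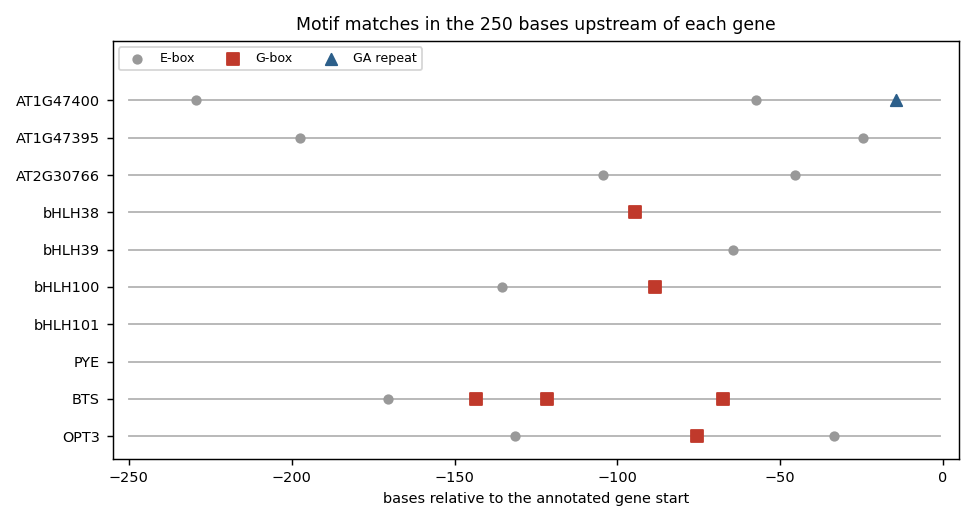
Motif matches in the 250 bases upstream of each of the 10 genes, plotted as distance in bases from the annotated gene start, with symbols for G-boxes, GA repeats and other E-boxes. Of the 10 genes, *BTS* held 3 G-boxes, *bHLH38*, *bHLH100* and *OPT3* held 1 each, and the GA repeat lay before AT1G47400.

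Library totals were 16196042 to 19951509 estimated counts in *bpcV* and 17777219 to 21455150 in wild type. *BPC1*, *BPC2* and *BPC6* transcripts were far lower in *bpcV* (log2 fold changes of -5.25, -4.43 and -4.48). *BPC4* was also lower, by a log2 fold change of -0.62, a call missed without any 1 of the wild type libraries or without *bpcV* replicate 3 (FDR up to 0.01895, edgeR). *BPC3* had a log2 fold change of 0.38 and an FDR of 0.29 in the edgeR quasi-likelihood test. A filter on low counts left 20813 genes, 6 of the 10 among them: the 3 IRON MAN genes, *PYE*, *BTS* and *OPT3*. The 4 subgroup Ib genes did not pass it. Levels between genes are compared in TPM, a transcript abundance scaled to the library, which also divides by gene length.

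The order of the 10 genes by mean TPM began with *OPT3* and *BTS* in both genotypes. In *bpcV* AT2G30766 came next, followed by *PYE*, AT1G47395 and AT1G47400, whereas in wild type *PYE*, AT1G47395, AT1G47400 and AT2G30766 followed in that order. The 3 IRON MAN genes overlapped one another in their TPM ranges within wild type and within *bpcV*, but AT2G30766 was the highest of the 3 in every *bpcV* library. In *bpcV* the highest AT2G30766 library was also within the *BTS* range, though *BTS* was above AT2G30766 in every library. *OPT3* was above *BTS* in every library of both genotypes. *PYE* also overlapped AT2G30766, AT1G47395 and AT1G47400 in *bpcV*, while in wild type the lowest *PYE* value, 11.53 TPM, was above every IRON MAN value. The subgroup Ib genes were last in both genotypes.

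**Figure D2:**
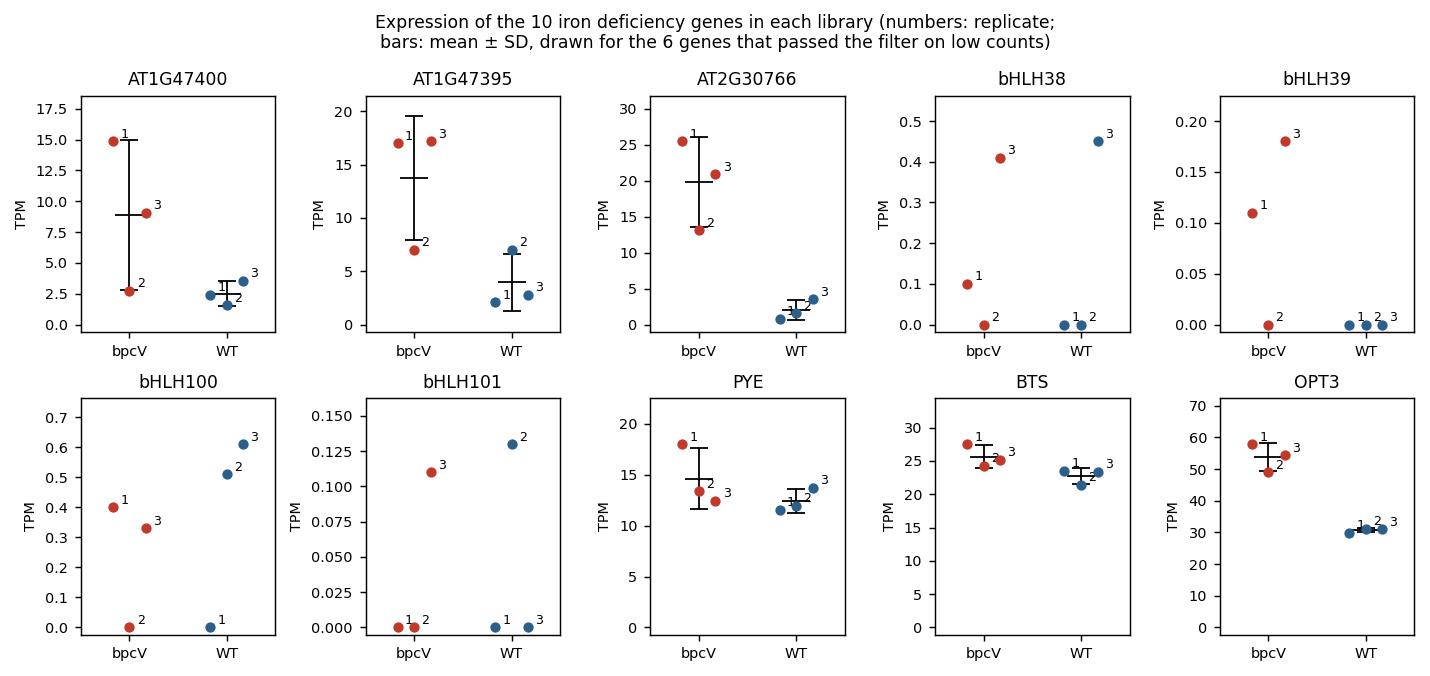
TPM of each of the 10 genes in the 3 *bpcV* and 3 wild type (WT) libraries, 1 panel per gene with its own linear axis, points numbered by replicate, and bars for the mean and SD of the genes that passed the filter on low counts. AT2G30766, *BTS* and *OPT3* had every *bpcV* point above every wild type point, and no subgroup Ib gene exceeded 0.61 TPM.

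Transcripts of all 3 IRON MAN genes were more abundant on average in *bpcV*. Their summed level was 57.29, 22.87 and 47.12 TPM in *bpcV* replicates 1, 2 and 3, against 5.35, 10.18 and 9.87 TPM in wild type replicates 1, 2 and 3, and the genotypes did not overlap. The sum averaged 42.4 ± 17.7 TPM in *bpcV* and 8.47 ± 2.70 TPM in wild type (SD, n = 3 each). These levels rest on few reads, 428 counts over the 3 genes and 3 libraries in *bpcV* and 81 in wild type.

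AT2G30766 had 25.46, 13.11 and 20.89 TPM in *bpcV* replicates 1, 2 and 3, against 0.84, 1.59 and 3.51 TPM in wild type replicates 1, 2 and 3. The counts behind these values were 88, 46 and 82 in *bpcV* and 3, 6 and 11 in wild type, so the gene passed the filter through the *bpcV* libraries. The genotypes were far apart, with no overlap. The log2 fold change was 3.47 ± 0.45 (SE), or 11.1-fold, the 4th highest of the 20813 genes that passed the filter. The share of AT2G30766 in the summed IRON MAN level was 46.7% in *bpcV* and 23.4% in wild type. The gene as annotated in TAIR10.1 overlaps AT2G30760 and *CYP71A13* on the opposite strand, and whether reads were counted by strand is not given in the sources used here. The authors counted reads on TAIR10 transcripts, whose bounds may differ from these. AT2G30760 was at 0 in every library, and *CYP71A13* had 1.07, 1.04 and 2.0 TPM in *bpcV* and 0.61, 1.0 and 0.67 TPM in wild type.

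AT1G47395 had 16.98, 7.01 and 17.17 TPM in *bpcV* replicates 1, 2 and 3, and 2.10, 7.03 and 2.81 TPM in wild type replicates 1, 2 and 3. Replicate 2 of *bpcV* and replicate 2 of wild type met at the same level. In CPM, the count scaled to the library without gene length, the lowest *bpcV* value, 1.01, was above the highest wild type value, 0.976, whereas in TPM the genotypes overlapped by this pair of libraries. RSEM (the authors' quantification program) gave this short transcript an effective length of 157.68 to 164.93 bases in *bpcV* and 152.99 to 155.57 bases in wild type, and TPM divides by that length. The log2 fold change was 1.85 ± 0.51 (SE), and it was 2.52 without wild type replicate 2, the highest wild type library.

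AT1G47400 had 14.85, 2.75 and 9.06 TPM in *bpcV* replicates 1, 2 and 3, and 2.41, 1.56 and 3.55 TPM in wild type replicates 1, 2 and 3. Replicate 2 of *bpcV* lay within the wild type range. The log2 fold change was 1.84 ± 0.59 (SE), and between 1.28 and 2.26 when 1 library was left out. Summing this gene with its tandem neighbour before the fit gave a log2 fold change of 1.85. *bpcV* replicate 2 was the lowest of the *bpcV* libraries for each IRON MAN gene.

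The 4 subgroup Ib genes, the direct targets of the IVc factors, were close to undetected in both genotypes. All 4 lie on the minus strand, *bHLH38* at 21084035 to 21085245 and *bHLH39* at 21086390 to 21087710 on chromosome 3, *bHLH100* at 17198037 to 17199454 on chromosome 2, and *bHLH101* at 1138410 to 1139633 on chromosome 5. *bHLH38* had 1, 0 and 5 counts in *bpcV* and 0, 0 and 5 counts in wild type. *bHLH39*, which lies 1144 bases from *bHLH38* on chromosome 3, had 1, 0 and 2 counts in *bpcV* and 0 in every wild type library. *bHLH100* had 3, 0 and 3 counts in *bpcV* and 0, 4 and 5 counts in wild type, and *bHLH101* had 0, 0 and 1 count in *bpcV* and 0, 1 and 0 counts in wild type. As annotated in TAIR10.1, *bHLH38* overlaps *PIP5K4* and *bHLH101* overlaps *GLU1*. Where the counted transcripts also overlap, reads from the shared stretch cannot be told apart without strand. Together the 4 genes had 16 counts in *bpcV* and 15 in wild type, 13 of their 24 values were 0, and none was above 5 counts or 0.61 TPM. Their summed level averaged 0.547 ± 0.518 TPM in *bpcV* and 0.567 ± 0.534 TPM in wild type (SD, n = 3 each). A count of 0 allows up to 3 counts, which is 0.150 to 0.185 CPM in the *bpcV* libraries and 0.140 to 0.169 CPM in the wild type libraries, covering counting error only. No fold is given for these genes, since a difference between genotypes was not detectable at this depth.

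*PYE* lies on the plus strand of chromosome 3, at 17567126 to 17569394. It had 18, 13.37 and 12.45 TPM in *bpcV* and 11.53, 11.97 and 13.73 TPM in wild type (replicates 1, 2 and 3 each). The genotypes overlapped, and the log2 fold change was 0.23 ± 0.16 (SE). Only *bpcV* replicate 1 was above the wild type range.

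*BTS* lies on the plus strand of chromosome 3, at 6273966 to 6280562. It had 27.51, 24.23 and 25.12 TPM in *bpcV*, against 23.53, 21.38 and 23.39 TPM in wild type. The *bpcV* libraries were all above the wild type libraries, but by a small margin, with a log2 fold change of 0.16 ± 0.08 (SE), or 1.12-fold. *BTS* and *OPT3* had the deepest coverage among the 10 genes, with at least 1408 counts in each library for *BTS* and 1087 for *OPT3*.

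*OPT3* lies on the minus strand of chromosome 4, at 9247302 to 9250343. It had 57.89, 49.01 and 54.34 TPM in *bpcV*, against 29.90, 31.15 and 31.03 TPM in wild type. The lowest *bpcV* library was well above the highest wild type library. The mean was 53.8 ± 4.5 TPM in *bpcV* and 30.7 ± 0.7 TPM in wild type (SD, n = 3 each), and the log2 fold change was 0.80 ± 0.09 (SE), or 1.74-fold. The gene ranked 535th from the top by log2 fold change among the genes that passed the filter.

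Of the 10 genes, AT2G30766 and *OPT3* were past an FDR of 0.01 in the fit across all genes, both higher in *bpcV*, and none was past it in the other direction. Over all 20813 genes, 3.89% were past this threshold, 1.66% higher and 2.23% lower in *bpcV*. No overlap between genotypes in CPM, with *bpcV* above wild type, was seen for 4 of the 10 genes, AT1G47395, AT2G30766, *BTS* and *OPT3*, and for 18.2% of all genes. No gene of the 10 had every *bpcV* library below wild type, which 17.6% of all genes had, and 35.8% of all genes did not overlap in one direction or the other. Nothing is read from either count, since this contrast was known when the genes were picked. The FDR threshold was missed by both genes without wild type replicate 1, wild type replicate 2 or *bpcV* replicate 3, and by *OPT3* without wild type replicate 3. The number of all genes past it was 809, and 172, 167, 256 and 204 without each of these libraries, in the same order. The log2 fold changes themselves moved less, to between 3.05 and 4.04 for AT2G30766 and between 0.75 and 0.87 for *OPT3* when 1 library was left out.

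**Figure D3:**
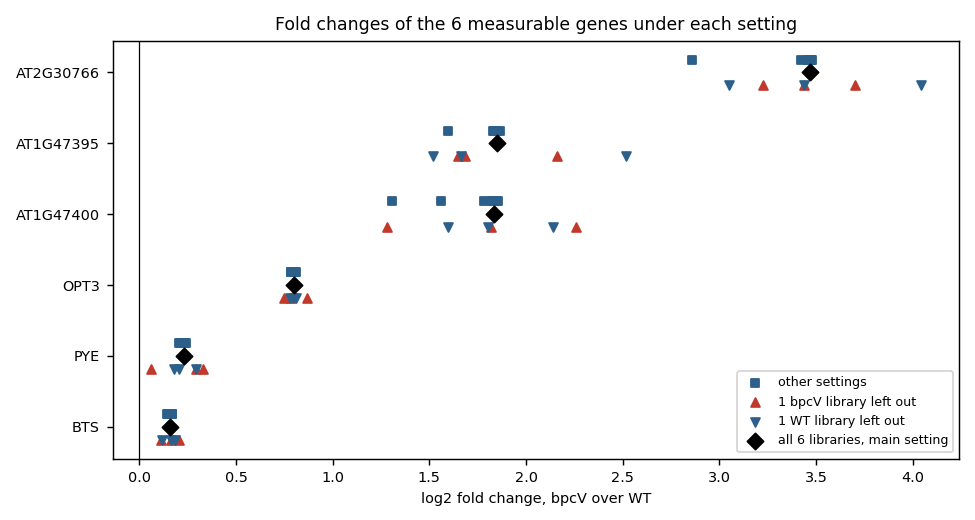
Log2 fold change of *bpcV* over wild type (WT) for the 6 genes that passed the filter on low counts, under the setting used throughout (diamond), other settings (squares) and with 1 library left out (triangles). All points are above 0, with AT2G30766 between 2.86 and 4.04, *OPT3* between 0.75 and 0.87, and *PYE* between 0.06 and 0.33.

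The other iron genes were taken from lists of known function, 61 genes of which 47 passed the filter. These lists were chosen with earlier results of these data known, so calls in them are not independent tests. The edgeR quasi-likelihood test put 3 of the 47 genes past an FDR of 0.01, all higher in *bpcV* and all in the distribution list. Over all genes, 1.66% were called higher and 2.23% lower by the same test. The median log2 fold change of the 47 genes was 0.02, with 25 positive and 22 negative, and that of all genes was 0.01. *YSL3*, a transporter of metal-nicotianamine complexes, had 25.39, 27.84 and 24.64 TPM in *bpcV* against 17.38, 14.56 and 14.96 TPM in wild type, with a log2 fold change of 0.72 ± 0.10 (SE, FDR = 0.003279, edgeR). The ferric reductase gene *FRO6* had 55.14, 62.74 and 55.34 TPM in *bpcV* against 35.26, 26.34 and 23.28 TPM in wild type, with a log2 fold change of 1.02 ± 0.15 (SE, FDR = 0.005281, edgeR). *FRO7*, which encodes the chloroplast ferric reductase, had 36.84, 46.85 and 41.41 TPM in *bpcV* against 26.48, 21.55 and 21.46 TPM in wild type, with a log2 fold change of 0.84 ± 0.12 (SE, FDR = 0.005082, edgeR). *FRO6* and *FRO7* shared reads, as their counts were not whole in any of the 6 libraries, and their sum had a log2 fold change of 0.94 (FDR = 0.004585, edgeR).

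All 3 calls were lost when wild type replicate 2, wild type replicate 3 or *bpcV* replicate 3 was left out, with 33.3%, 20.8% and 27.7% of the listed iron genes then at an unadjusted p under 0.05 (edgeR), against 20.8%, 20.1% and 26.5% of all genes in the same fits. Without wild type replicate 1, *YSL3* and *FRO7* lost the call, and without *bpcV* replicate 2, *FRO6* and *FRO7* lost it. The largest of these FDR values was 0.02755 for *YSL3*, 0.03844 for *FRO6* and 0.03846 for *FRO7* (edgeR), and every fold change stayed positive.

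In the distribution list, 3 of 19 genes that passed the filter were called higher in *bpcV* by edgeR and none lower. Of all genes, edgeR called 1.66% higher and 2.23% lower. The median log2 fold change was 0.13, 12 of the 19 had an unadjusted p under 0.05 (edgeR), and DESeq2 called 3 higher and 1 lower. In CPM, every *bpcV* library was above every wild type library for 7 of the 19 and below for 4, against 18.2% and 17.6% of all genes. Of the same list, the nicotianamine synthase gene *NAS1*, named after its values were seen, had 0.40, 0.19 and 0.39 TPM in *bpcV* and 1.63, 1.19 and 1.22 TPM in wild type. Its counts were 6, 3 and 7 in *bpcV* and 31, 19 and 20 in wild type, so it passed the filter through the wild type libraries. The log2 fold change of *NAS1*, given as a description, was -2.03 ± 0.37 (SE, FDR = 0.01161, edgeR). Shares at an unadjusted p and DESeq2 calls are set against those of all genes, of which 28.3% had an unadjusted p under 0.05 in edgeR and DESeq2 called 3.61% higher and 5.11% lower. In the uptake list, which holds root import genes and coumarin synthesis genes, none of 8 genes was past the threshold in the edgeR test, 3 had an unadjusted p under 0.05, and DESeq2 called 1 lower. The smallest FDR there was that of *F6'H1*, an enzyme gene of coumarin synthesis, with a log2 fold change of -0.80 ± 0.19 (SE, FDR = 0.02897, edgeR). Among the 10 other regulators that passed the filter, none was past the threshold in edgeR or DESeq2 and none had an unadjusted p under 0.05. The smallest FDR belonged to *URI*, with a log2 fold change of -0.12 ± 0.08 (SE, FDR = 0.3986, edgeR). Among 5 genes of the response list none was past the threshold in edgeR or DESeq2, and 1 had an unadjusted p under 0.05. That gene, AT5G05250, had a log2 fold change of 1.23 ± 0.46 (SE, FDR = 0.1249, edgeR), which was 0.56 without *bpcV* replicate 3.

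In the storage list none of 5 genes was past the threshold in edgeR, 3 had an unadjusted p under 0.05, and DESeq2 called 1 lower. All 5 log2 fold changes were negative, with a median of -0.26. The summed level of the list was 303.1 to 357.8 TPM in *bpcV* and 396.3 to 570.1 TPM in wild type. The ferritin gene *FER1*, for plastid iron storage, had 145.0, 193.0 and 154.78 TPM in *bpcV* and 360.19, 226.66 and 327.24 TPM in wild type, with a log2 fold change of -0.89 ± 0.18 (SE, FDR = 0.0153, edgeR). It shared reads with other genes, as its counts were not whole in any of the 6 libraries. Most of the gap between genotypes in the summed level was that of *FER1*, which averaged 164.3 TPM in *bpcV* and 304.7 TPM in wild type. *FER3* averaged 80.7 TPM in *bpcV* and 94.3 TPM in wild type, and *FER4* averaged 63.7 and 76.4 TPM. *FER2* was at a lower level, 3.81 TPM in *bpcV* and 6.58 TPM in wild type on average. Its log2 fold change was -0.79 ± 0.18 (SE, FDR = 0.02867, edgeR).

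**Figure D4:**
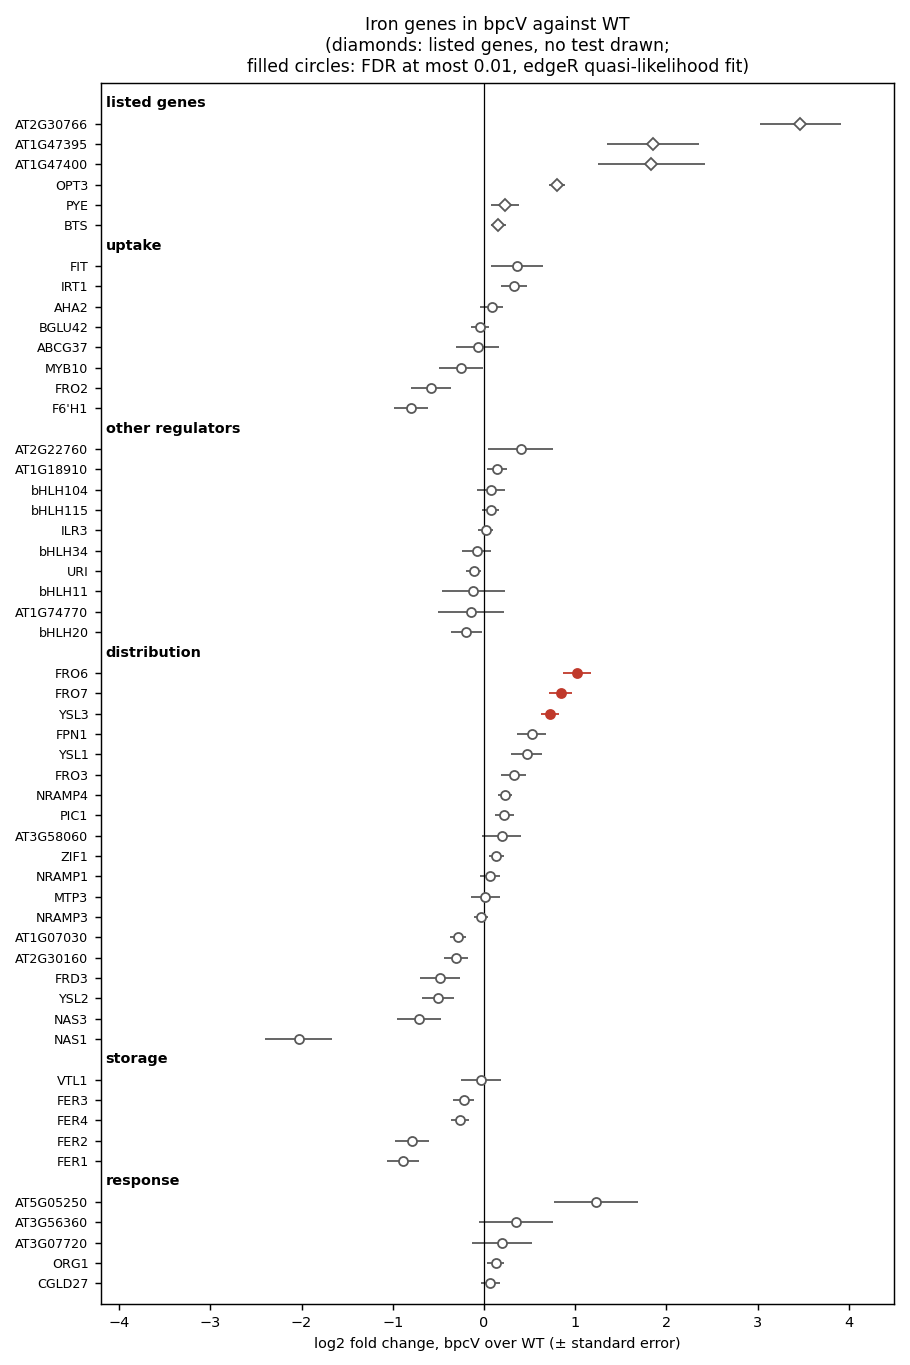
Log2 fold change of *bpcV* over wild type (WT) with its standard error for the iron genes that passed the filter, with the 10 genes on top and the others grouped by list, with filled circles for list genes at an FDR of at most 0.01 in the edgeR quasi-likelihood fit and diamonds, with no test drawn, for the 10 genes. Filled circles are *FRO6*, *FRO7* and *YSL3*, all on the positive side, and the 5 storage genes lie below 0.

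Markers of tissues that the apices hold were measured beside these genes. The marker and clock lists were likewise chosen with earlier results of these data known. Of 12 phloem markers, 1 was called higher in *bpcV* and none lower, against 1.66% and 2.23% of all genes (edgeR). The median log2 fold change was 0.03, and none of the 12 was at 0. An unadjusted p under 0.05 was seen for 5 of the 12 (edgeR), against 28.3% of all genes. In CPM, every *bpcV* library was above every wild type library for 2 of the 12 and below for 3, against 18.2% and 17.6% of all genes. The call was the phloem lectin gene *PP2-A1*, with a log2 fold change of 0.84 ± 0.11 (SE, FDR = 0.00344, edgeR). The companion cell marker *SUC2* had a log2 fold change of -0.04, and of 0.05 without *bpcV* replicate 3. The summed phloem level was 431.2 to 522.3 TPM in *bpcV* and 383.5 to 398.6 TPM in wild type. Without *PP2-A1* the other 11 markers summed to 273.4 to 328.6 TPM in *bpcV* and 288.8 to 302.0 TPM in wild type, so the genotypes then overlapped. The *PP2-A1* call was lost without any 1 of the wild type libraries or without *bpcV* replicate 3, with an FDR of up to 0.02524 (edgeR). Of 6 xylem markers, none was called higher in *bpcV* and 1 lower, against 1.66% and 2.23% of all genes (edgeR). That gene was *CESA7*, a secondary wall cellulose synthase gene, with a log2 fold change of -0.86 ± 0.08 (SE, FDR = 0.0007882, edgeR). The median log2 fold change of the 6 was -0.05, with 2 positive and 4 negative. An unadjusted p under 0.05 was seen for 1 of them (edgeR), against 28.3% of all genes. Their summed level overlapped between genotypes, at 173.5 to 196.1 TPM in *bpcV* and 190.6 to 207.1 TPM in wild type.

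The 9 tapetum markers had a summed level of 103.3 to 154.0 TPM in *bpcV* and 156.9 to 290.1 TPM in wild type. None of the 7 that passed the filter was past the threshold in edgeR, 4 had an unadjusted p under 0.05, and DESeq2 called 3 lower. The smallest FDR was that of *AMS*, a tapetum bHLH factor, with a log2 fold change of -1.24 ± 0.31 (SE, FDR = 0.03583, edgeR). The 9 flower identity genes, which mark the sampled tissue, summed to 881.3 to 1085 TPM in *bpcV* and 891.6 to 901.7 TPM in wild type, with none past the threshold in edgeR, 3 at an unadjusted p under 0.05 and 1 called higher by DESeq2. The lowest FDR among them was that of *AP1*, with a log2 fold change of 0.48 ± 0.09 (SE, FDR = 0.01542, edgeR). Of 12 circadian clock genes, 2 were lower, the morning genes *CCA1* (log2 fold change of -0.81 ± 0.11, SE, FDR = 0.003008, edgeR) and *PRR9* (-1.44 ± 0.25, SE, FDR = 0.008869, edgeR). Over all genes, edgeR called 2.23% lower. Leaving out any 1 wild type library ended both clock calls (FDR up to 0.01783 for *CCA1* and 0.04384 for *PRR9*, edgeR), as did leaving out *bpcV* replicate 2 or 3 for *PRR9*. The *PRR9* counts were not whole in any of the 6 libraries. In edgeR, 6 of the 12 clock genes had an unadjusted p under 0.05, against 28.3% of all genes, and DESeq2 called 1 higher and 3 lower. Every *bpcV* library was above every wild type library in CPM for 2 of the 12 and below for 5, against 18.2% and 17.6% of all genes. The part of these tissues and of the clock in the iron gene levels was not tested.

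Likeness to the IRON MAN genes was measured as Pearson's r between the log2 CPM of each gene and the mean log2 CPM of the 3 IRON MAN genes, over the 6 libraries and 20810 genes. The most alike were AT4G02370 (r = 0.9997), AT1G35780 (r = 0.9973), AT1G50510 (r = 0.9973), *SCP2* (r = 0.9951) and AT1G17200 (r = 0.9948). Their log2 fold changes were small, 0.24 to 0.40, and none was past the FDR threshold (FDR of 0.03254 to 0.1045, edgeR). Pearson's r compares the pattern over libraries and not the size of the difference. *OPT3* had an r of 0.9616 and stood 198th, *BTS* had an r of 0.8655 and stood 1506th, and *PYE* had an r of 0.7081 and stood 3849th. The 6 points share the genotype difference and the library scaling, so these values are a description. No likeness was computed for the subgroup Ib genes, none of which passed the filter.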

How the data were processed

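RNA of 3 *bpcV* and 3 wild type biological replicates was sequenced as paired-end reads. Alignment by the authors used bowtie2 against transcripts of TAIR10, followed by RSEM for gene level estimates (versions not given in the sources used here). The authors deposited an expected count per gene and library, not normalized, as well as TPM scaled by effective gene length and the effective length in bases. A deposited table of their own comparison, holding scaled values, fold changes and p-values, was not used.

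After rounding, low genes were removed by filterByExpr (minimum count 10, minimum total 15) and TMM factors were applied. *bpcV* was set against wild type in edgeR 4.0.16 (R 4.3.3) by the quasi-likelihood test, with Benjamini-Hochberg adjustment and an FDR of 0.01. The standard error is the absolute log2 fold change divided by the square root of F. Biological coefficient of variation was 13%. DESeq2 1.42.0, limma 3.58.1 (log2 of TPM plus 1 or 0.1, mean TPM of at least 1), other scalings, filters, a threshold of 0.05, a replicate block and leaving out each library were alternatives.

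Sequences and coordinates were read from RefSeq TAIR10.1 (Python 3.11.15), as the deposited tables hold no coordinates. The 10 genes and all gene lists were chosen with earlier results of these data known. Named genes were the 10, the BPC genes mutated in *bpcV*, the genes of each list past the FDR threshold or otherwise the one with the smallest FDR, and the 5 genes most alike to the IRON MAN mean. *NAS1*, *SUC2*, *FER2*, *FER3* and *FER4* were named after their values were seen.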

Additional observations from a re-analysis of the deposited data

How the results depend on the processing

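The number of genes past the FDR threshold was 809, against 1814 with DESeq2, 2233 with the edgeR likelihood ratio test, 532 with limma on log2(TPM + 0.1), 2506 at an FDR of 0.05, and 167 to 1249 when 1 library was left out. Of the 10 genes, 2 were past it, against 3 with DESeq2 and with the likelihood ratio test (AT1G47395 added), 1 where at least 10 counts in every library were required (*OPT3*, as the 3 IRON MAN genes then left the fit), and 0 to 2 with 1 library left out. Of the other iron genes, 3 were past it, against 6 with DESeq2, 7 with the likelihood ratio test, 7 at an FDR of 0.05 and 0 to 4 with 1 library left out. Of the marker, clock and BPC genes, 8 were past it, against 14 with DESeq2, 14 with the likelihood ratio test, 14 at an FDR of 0.05 and 4 to 11 with 1 library left out. Among the fold changes recomputed, that of *SUC2*, which was not past the threshold, lay between -0.107 and 0.048 with 1 library left out, turning positive without *bpcV* replicate 3, and no other turned its direction. All 94 alternative fold changes moved by less than the replicate spread, for the 6 of the 10 genes that passed the filter. The subgroup Ib genes had no fold change to compare. For the other named genes, 328 alternative values kept their side of the threshold, 22 passed it in the alternative only and 37 no longer passed it. The likeness to the IRON MAN genes was not recomputed. Replicate numbers were not taken to pair the samples, as same-numbered libraries had correlations of -0.02, -0.01 and 0.18 in their deviations from the group means, and 2 of 6 libraries correlated best with their own number. With the replicate number as a block, 408 genes were past the threshold, 2 of the 10 genes, and 0 of the other iron genes (edgeR, 40.4% of them and 25.9% of all genes at an unadjusted p under 0.05). The summed counts of *bHLH38*, *bHLH39* and *bHLH100* did not pass the filter, so that alternative gave no value. The sum of *FRO6* and *FRO7* was chosen after seeing the data. Among the 10 genes, few reads limit the subgroup Ib genes in both genotypes and the IRON MAN genes in wild type.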
